A study of Mus musculus with 2 samples.

Results

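The genes described here are 9 epithelial genes of pancreatic tumours in mice, namely the keratins Krt7, Krt8, Krt18, Krt19 and Krt20, the claudin Cldn7, the transcription factors Sox9 and Onecut2, and Spp1, which encodes osteopontin. They were chosen by symbol among the 32285 genes listed for each library, as genes of the duct-type epithelium. The rule that selects them uses no measured value, but the 9 genes and the further gene lists were chosen with earlier results of these data known. Comparisons with all genes are therefore descriptions only. Single-cell suspensions of pancreatic tumours were processed by droplet-based 3′ RNA sequencing, with 1 library for each of 2 mouse genotypes at 6 weeks of age. EL1 is an FVB/N line in which the rodent elastase I promoter, active in acinar cells, drives the SV40 large T antigen and a firefly luciferase reporter. WTg mice came from a cross of EL1 with mice that carry the Mettl3 open reading frame under the CAG promoter, which is active in most cell types, so that T antigen and luciferase are shared by both groups and the Mettl3 transgene is found only in WTg. The Mettl3 transgene was injected into eggs of BL/6 mice, and the strain background therefore cannot be told apart from the transgene. How many animals gave each suspension, and of which sex, was not given in the sources used here. The study asked how a higher level of Mettl3, the catalytic subunit of the m6A RNA methyltransferase, relates to tumours of this model.

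After filtering (at least 500 genes, at least 1000 unique molecular identifiers, UMIs, and at most 20% mitochondrial UMIs), 1113 of 1621 EL1 barcodes and 905 of 1488 WTg barcodes remained, with medians of 26543 and 34836 UMIs per cell. The libraries shared 15 barcode sequences among all deposited barcodes and 0 among the kept cells. Mettl3 stood at 15.1 CPM (13.9 to 16.4) in EL1 and at 66.7 CPM (63.9 to 69.5) in WTg, which fits the labels. Values are UMIs per 1000000 UMIs of the same cells (CPM), with 95% exact Poisson intervals in parentheses, ratios are given as log2 of WTg over EL1 with exact conditional binomial intervals, and shares of cells carry Clopper-Pearson intervals. With 1 library per genotype no difference could be tested, and all intervals cover counting error only and say nothing of the spread between mice. The submitters labelled the cells as epithelial. Epcam, the epithelial adhesion molecule, stood at 576 CPM (568 to 583) and 509 CPM (501 to 516), and 1043 EL1 and 828 WTg cells lay in clusters that were not named immune or erythroid and were not stromal. The other kept cells included 50 and 67 macrophage-, T or NK- and B-like cells.

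Simple epithelia build their intermediate filaments from pairs of a type II keratin (here Krt7 and Krt8) and a type I keratin (here Krt18, Krt19 and Krt20), and Krt8 with Krt18 is the pair found in acinar cells as well as in ducts. In the normal pancreas Krt7 and Krt19 mark the duct, Krt20 is best known from intestinal and gastric epithelium and some pancreatic tumours, Cldn7 is a claudin of epithelial cell contacts, Sox9 and the Onecut factors act in pancreatic progenitors and in duct cells, and osteopontin is a secreted phosphoprotein of duct cells and of macrophages. Sox9 and Krt19 are also widely used markers of acinar cells that take on duct features.

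By the GRCm38 annotation (GENCODE M21), Krt7 (ENSMUSG00000023039, chr15:101411043-101430313, plus strand), Krt8 (ENSMUSG00000049382, chr15:101996698-102004482, minus strand) and Krt18 (ENSMUSG00000023043, chr15:102028180-102032027, plus strand) lie on chromosome 15. Krt8 and Krt18 are separated by 23697 bases and are transcribed away from each other. Krt20 (ENSMUSG00000035775, chr11:99428403-99438150, minus strand), Krt19 (ENSMUSG00000020911, chr11:100140810-100148665, minus strand), Cldn7 (ENSMUSG00000018569, chr11:69964779-69967885, plus strand) and Sox9 (ENSMUSG00000000567, chr11:112782224-112787760, plus strand) lie on chromosome 11, and Spp1 (ENSMUSG00000029304, chr5:104435118-104441050, plus strand) on chromosome 5. Onecut2 (ENSMUSG00000045991) lies on the plus strand of chromosome 18. Krt7 overlaps Gm671 on the opposite strand over 1269 bases and Krt8 overlaps Gm36026 on the opposite strand over 271 bases; the latter had 324 UMIs in EL1 and 285 in WTg against 235284 and 194020 for Krt8. Spp1 overlaps Gm42793 on the same strand over 1252 bases, and no gene of that symbol was among those counted.

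Over all kept cells, the Krt8 and Krt18 pair hardly differed between the genotypes, whereas Cldn7 and Krt20 were lower and Spp1 was higher in WTg. Of the 9 genes, 1 had a log2 ratio of 1 or more, against 10.1% of the 16167 genes with at least 10 UMIs, and 2 had a ratio of -1 or less, against 6.90% of those genes. The median ratio of the 9 genes was -0.08 and that of all 16167 genes was -0.14. TMM scaling, which sets most genes to no difference, moved every ratio by 0.11, so that the median of all genes came to -0.02. In sums over all cells, fewer cells that hold a gene and less RNA of it per cell cannot be told apart.

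**Figure D1:**
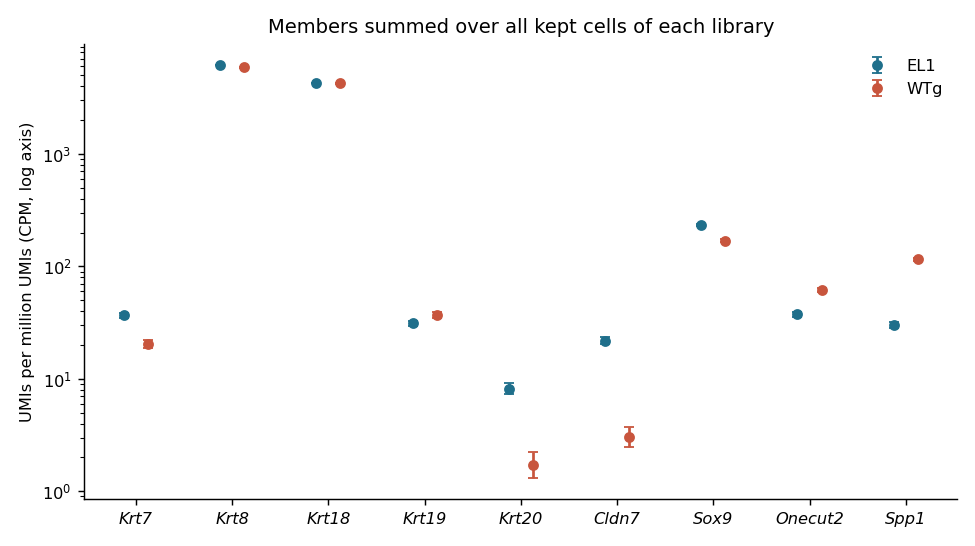
Levels of the 9 genes summed over all kept cells, on a log axis in CPM, with 95% Poisson intervals of counting error (1113 EL1 cells in blue and 905 WTg cells in red, 1 library each). The EL1 and WTg points of Krt8, and likewise of Krt18, nearly coincide (with ratios that turn to 0.04 and 0.11 under TMM scaling), Cldn7 and Krt20 sit lower in WTg, and Spp1 sits higher in WTg.

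Krt8, the type II partner, was at 6198 CPM (6173 to 6223) in EL1 against 5878 CPM (5852 to 5904) in WTg, with a ratio of -0.08 (-0.09 to -0.07). Krt18, its type I partner, was at 4253 CPM (4232 to 4274) and 4240.4 CPM (4218 to 4263), a ratio of -0.00 (-0.01 to 0.01). Under TMM scaling both ratios were above 0, at 0.04 and 0.11, and Krt18 was also above 0 over epithelial clusters alone, so neither had a stable sign.

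Krt7, the type II keratin of duct and other secretory epithelia, was at 36.9 CPM (35 to 38.9) in EL1 against 20.5 CPM (19 to 22.1) in WTg, with a ratio of -0.85 (-0.98 to -0.71). Krt19, the type I keratin used most often to mark pancreatic duct, was at 31.1 CPM (29.3 to 32.9) and 37 CPM (34.9 to 39.1), with a ratio of 0.25 (0.13 to 0.37). Krt20 was the least detected of the keratins, with 310 UMIs in EL1 and 57 in WTg, or 8.17 CPM (7.28 to 9.13) against 1.73 CPM (1.31 to 2.24), and its ratio was -2.24 (-2.68 to -1.83). In WTg, 64.9% of the Krt20 UMIs came from 10 cells.

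Cldn7 was at 21.9 CPM (20.4 to 23.4) in EL1 against 3.06 CPM (2.49 to 3.72) in WTg, with a ratio of -2.84 (-3.15 to -2.54). Sox9, an HMG box factor that maintains pancreatic progenitors, was at 233 CPM (228 to 238) and 169 CPM (165 to 174), a ratio of -0.46 (-0.51 to -0.42). Onecut2, a cut-homeodomain factor, stood the other way, at 37.6 CPM (35.6 to 39.6) and 61.3 CPM (58.7 to 64), a ratio of 0.71 (0.61 to 0.81). Spp1 was at 30.3 CPM (28.6 to 32.1) and 116 CPM (112 to 119), a ratio of 1.93 (1.84 to 2.03), and the 10 cells with most Spp1 held 61.3% of its UMIs in EL1 and 54.2% in WTg.

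Because deeper cells show more genes, shares of cells with a UMI were taken after drawing 2000 UMIs from each cell, which kept 997 of the 1043 EL1 and 766 of the 828 WTg epithelial cells. Macrophage-, T or NK- and B-like cells (47 in EL1 and 60 in WTg after drawing; median depths of 6882 and 8161 UMIs before it, against 28011 and 36078 in epithelial cells) give the level in cells that should lack these epithelial genes. A Krt8 UMI was found in 92.6% (90.8 to 94.1) of EL1 and 95.4% (93.7 to 96.8) of WTg epithelial cells, against 25.5% (13.9 to 40.3) and 15% (7.1 to 26.6) of immune cells. Sox9 was found in 27.9% (25.1 to 30.8) and 22.1% (19.2 to 25.2) of epithelial cells, against 0 of 47 and 2 of 60 immune cells. These shares exceed the immune ones beyond counting error.

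The other genes were sparse at this depth. Krt7 was found in 7.02% (5.51 to 8.79) of EL1 and 2.74% (1.7 to 4.16) of WTg epithelial cells, Krt19 in 6.52% (5.07 to 8.23) and 5.09% (3.65 to 6.89), Onecut2 in 7.32% (5.78 to 9.12) and 11.1% (8.96 to 13.5), Cldn7 in 4.21% (3.05 to 5.65) and 0.783% (0.288 to 1.7), and Krt20 in 1.5% (0.844 to 2.47) and 0.261% (0.0316 to 0.94). Of these, only a single WTg immune cell with Krt7 was found among the immune cells; 0 of 47 EL1 cells has a Clopper-Pearson upper limit of 7.55% and 0 of 60 WTg cells one of 5.96%. Onecut2 in WTg lay above that limit, and the intervals of the other shares did not clear it. With 5000 UMIs drawn, the upper limits of 0 of 27 and 0 of 43 immune cells were 12.8% and 8.22%, and Krt7 in EL1, at 15.4% (13.2 to 17.9), Krt19 in WTg, at 15.8% (13.2 to 18.7), and Onecut2 in WTg, at 24.4% (21.3 to 27.8), lay above them. Without drawing, Krt7 was found in 29.0% and 15.2% of all kept cells, Krt19 in 35.3% and 36.8%, Onecut2 in 39.1% and 50.6%, Cldn7 in 20.3% and 5.19%, and Krt20 in 6.65% and 3.09%. Spp1 was found in 1.81% (1.07 to 2.84) and 5.74% (4.2 to 7.63) of epithelial cells and in 12.8% (4.83 to 25.7) and 8.33% (2.76 to 18.4) of immune cells, so that its share alone does not separate epithelial cells from macrophages.

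Cells of both libraries were clustered together without the 9 genes, Mettl3, Plk1 and cell cycle genes, which gave 20 clusters after 1 mixed cluster had been split. Of these, 11 held at least 90% of their cells from 1 library, so a cluster and its library often cannot be told apart. The clusters that matter here are cluster 0 (neuroendocrine-like, 251 EL1 and 2 WTg cells, led by Resp18, Penk and Tff3), cluster 5 (neuroendocrine-like, 25 and 114 cells, led by Serpina1b, Serpina1c and Serpina1a), the acinar-like clusters 1 (4 and 226, led by Gm5771, Dmbt1 and Sycn), 8 (4 and 111, Ctrl, Spp1 and 2210010C04Rik) and 9 (27 and 60 shallow cells, Reg2, Ptgds and Krt79), and unnamed clusters. The unnamed ones were cluster 2 (163 and 1, S100g), 3 (164 and 0, Thbs1), 6 (131 and 1, Fst), 7 (0 and 119, Prss1), 11 (1 and 77, histone and mitotic genes), 12 (77 and 0, led by Atp4b, Klk1 and Atp4a), 13 (68 and 1, histone genes), 14 (36 and 29, Fos), 15a (32 and 6, Mgp, Slc16a3 and Bnip3) and 4 (60 and 81 shallow cells, Gm26917 and Malat1).

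No cluster could be called duct-like by the rule used here. Of 8 duct markers outside the 9 genes, no cluster had more than 2 raised, whereas a name needed 3. Cluster 15a was the only one in which the duct list had the most raised markers, and there only Slc4a4 was raised. The paper, from its own clustering of the single-cell data, named Duct-1, Beta/Duct-1 and Beta/Duct/Cancer clusters. Its labels were not compared with the clusters here. Cftr, the chloride channel of duct cells, and Dcdc2a had 0 UMIs in both libraries, which allows up to 0.0790 CPM for EL1 and 0.0909 CPM for WTg. Slc4a4, a bicarbonate cotransporter, stood at 26.7 CPM in EL1 against 19.4 CPM in WTg and Muc1, a mucin of the apical surface, at 16.2 CPM in EL1 against 25.5 CPM in WTg. Of 6 mesothelial markers, another keratin-rich cell type, 0 reached 10 UMIs over both libraries. The name of duct genes thus describes where the 9 genes are known from, and the cells that held them here carried acinar or neuroendocrine transcripts.

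**Figure D2:**
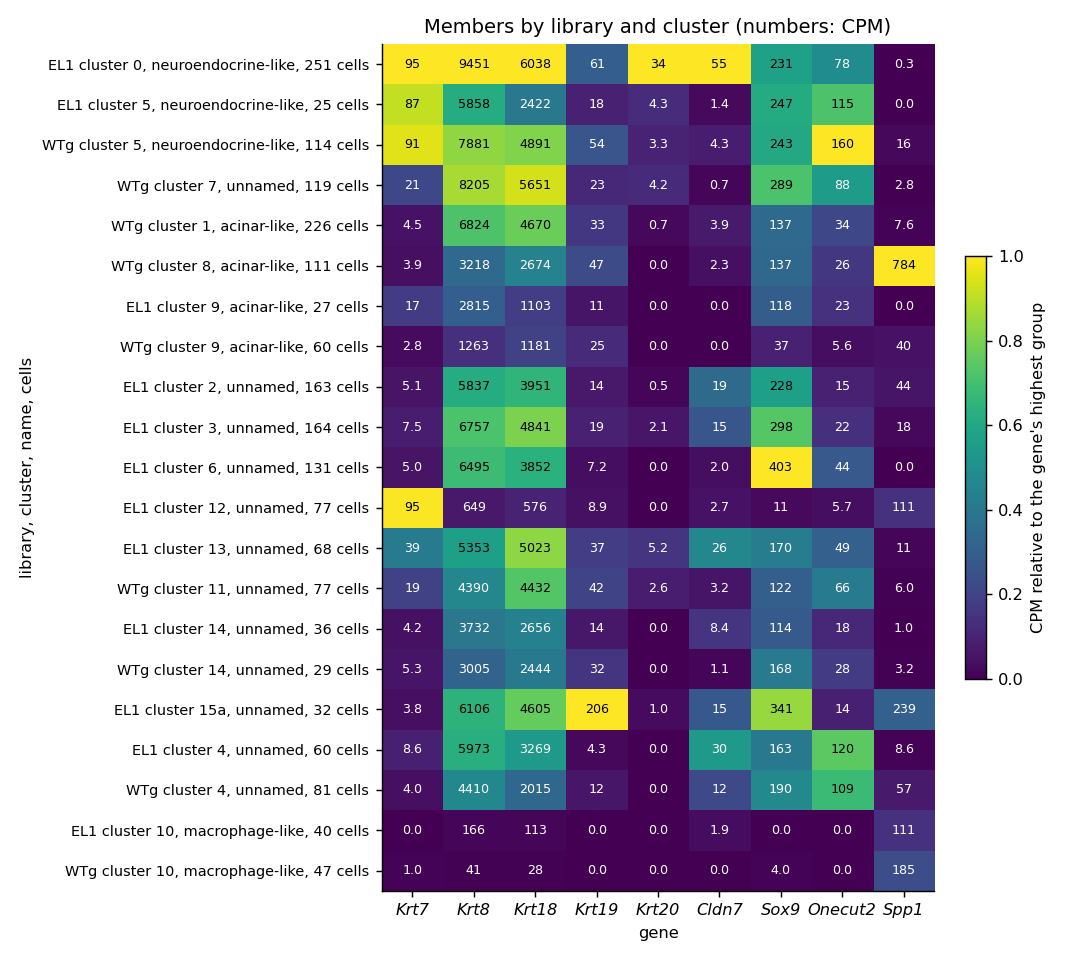
The 9 genes in the 21 groups of at least 20 cells formed by library and cluster. Printed numbers are CPM, and the colour is the CPM relative to the highest group of the same gene (column). Krt8, Krt18, Krt7, Krt20 and Cldn7 peaked in cluster 0 of EL1, Onecut2 in cluster 5 of WTg, Sox9 in cluster 6 of EL1, Krt19 in cluster 15a of EL1 and Spp1 in cluster 8 of WTg.

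Krt8 was highest in the neuroendocrine-like cluster 0 of EL1, at 9451 CPM (9383 to 9519), followed by cluster 7 of WTg at 8205 CPM (8129 to 8281) and cluster 5 of WTg at 7881 CPM (7797 to 7966). Among epithelial groups it was lowest in cluster 12 of EL1, at 649 CPM (622 to 677), and in cluster 9 of WTg, at 1263 CPM (1148 to 1385). Krt18 was highest in the same 2 groups and lowest in the same group, with 6038 CPM (5984 to 6093) in cluster 0 of EL1, 5651 CPM (5588 to 5715) in cluster 7 of WTg and 576 CPM (550.2 to 602) in cluster 12 of EL1. Macrophage-like cells had 166 CPM of Krt8 and 113 CPM of Krt18 in EL1 and 41.5 CPM and 28.3 CPM in WTg, and whether this came from free RNA was not tested.

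Across the 21 groups the log2(CPM + 10) values of Krt8 and Krt18 had a Pearson correlation of 0.98, and of 0.91 across the 19 epithelial groups. The groups share libraries and their depths, and the correlation is a description only. Of the epithelial cells with at least 5000 UMIs, 937 of 946 in EL1 and 689 of 696 in WTg held both transcripts, and Spearman's rho of their levels by cell was 0.69 and 0.75. The pair thus marked nearly every epithelial cell of either genotype.

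**Figure D3:**
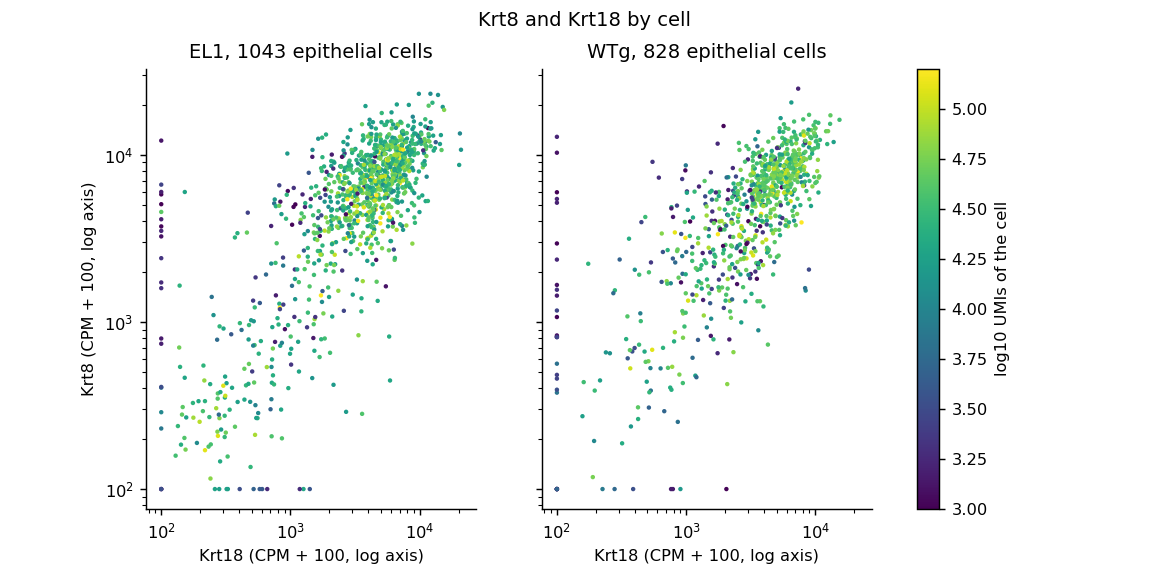
Each point is an epithelial cell, with Krt18 on the x axis and Krt8 on the y axis (CPM + 100, both log axes), coloured by the log10 number of UMIs of the cell. Most cells of both libraries form a single cloud at high levels of both genes, and the cells along the lower and left edges have 0 UMIs of a gene and are mostly shallow (25 of 34 in EL1 and 27 of 34 in WTg under 5000 UMIs).

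The balance between the types also differed between groups. Type II keratin UMIs (Krt7 and Krt8) were 1.45 (1.44 to 1.46) times those of type I (Krt18, Krt19 and Krt20) in EL1 and 1.38 (1.37 to 1.39) times in WTg. UMIs of 3′ libraries were not divided by transcript length, so this ratio can be read between groups of cells and not as a ratio of molecules. Among groups that were not shallow it was lowest in those led by histone and mitotic genes, at 0.985 (0.966 to 1.0) in cluster 11 of WTg and 1.06 (1.04 to 1.09) in cluster 13 of EL1, and highest in cluster 5 of EL1, at 2.43 (2.3 to 2.57). Krt8 was 5353 CPM in cluster 13 of EL1 and 4390.5 CPM in cluster 11 of WTg, and Krt18 was 5023 CPM and 4432 CPM.

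Because Krt8 and Krt18 moved together over the groups, the sequence before their starts is shown with that of Krt7, Krt20 and Spp1, whose patterns differed. The RefSeq promoter table (GRCm38.p6) held 6 of the 9 genes; 250 bases before the start were searched and the bases before any exon of a coding transcript are printed 5′ to 3′ on the strand of the gene, with the first start taken for Spp1. Capitals mark matches, on either strand, to the letters TATAAA of the TATA box, GGGCGG of the GC box, CCAAT of the CCAAT box, TGANTCA of the AP-1 site, ATCAAT as the Onecut core, ACAAT as the SOX core and CAGGTG of the E-box. The windows printed are chr15:102004483-102004592 (minus strand) for Krt8, chr15:102027966-102028179 (plus) for Krt18, chr15:101412153-101412401 (plus) for Krt7, chr11:99438154-99438403 (minus) for Krt20 and chr5:104434861-104435110 (plus) for Spp1. The Krt7 window lies inside the GENCODE span of Krt7 given above, because the RefSeq start used lies within that span.
Krt8: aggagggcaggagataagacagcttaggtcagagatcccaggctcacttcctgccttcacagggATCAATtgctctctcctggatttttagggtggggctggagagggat
Krt18: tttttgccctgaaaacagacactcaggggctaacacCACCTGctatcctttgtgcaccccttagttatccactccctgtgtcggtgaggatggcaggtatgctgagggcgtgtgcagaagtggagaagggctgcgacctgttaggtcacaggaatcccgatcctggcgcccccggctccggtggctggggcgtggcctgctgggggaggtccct
Krt7: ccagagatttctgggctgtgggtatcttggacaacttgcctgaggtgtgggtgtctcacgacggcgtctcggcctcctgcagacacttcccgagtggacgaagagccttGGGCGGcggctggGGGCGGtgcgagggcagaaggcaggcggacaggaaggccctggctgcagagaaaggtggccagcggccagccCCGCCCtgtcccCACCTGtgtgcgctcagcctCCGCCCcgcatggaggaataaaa
Krt20: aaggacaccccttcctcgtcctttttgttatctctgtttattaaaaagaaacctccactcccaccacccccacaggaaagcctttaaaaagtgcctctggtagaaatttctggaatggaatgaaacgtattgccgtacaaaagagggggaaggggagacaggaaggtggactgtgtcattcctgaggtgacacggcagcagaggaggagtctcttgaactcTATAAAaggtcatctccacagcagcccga
Spp1: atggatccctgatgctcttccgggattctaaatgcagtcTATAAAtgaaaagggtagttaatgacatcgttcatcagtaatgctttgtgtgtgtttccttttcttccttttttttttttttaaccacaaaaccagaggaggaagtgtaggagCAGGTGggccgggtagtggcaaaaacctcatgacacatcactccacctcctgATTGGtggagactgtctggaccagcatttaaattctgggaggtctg

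The Krt8 window held ATCAAT 186 bases before the start, which 6.72% of all 32851 windows of the table hold, and a CAGGTG match 111 bases before the start, in the part that lies in an exon and is not printed. The Krt18 window held CAGGTG alone, which 17.2% of windows hold. Krt7 had 4 matches to GGGCGG, found in 32.7% of windows, and 1 to CAGGTG. Krt20 had TATAAA 29 bases before its start, which 12.4% of windows hold anywhere. Spp1 had TATAAA 211 bases before its start, CAGGTG, and CCAAT on the opposite strand, which 33.8% of windows hold. TGANTCA (6.75% of windows) and ACAAT (27.7%) were not found in these 5 windows. A match says only that these letters are there.

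Krt7 had 4 groups at a similar level. These were cluster 0 of EL1 at 95.4 CPM (88.7 to 102), cluster 12 of EL1 at 95 CPM (84.9 to 106), cluster 5 of WTg at 91.3 CPM (82.4 to 101) and cluster 5 of EL1 at 86.7 CPM (66.4 to 111), whose intervals overlapped. The next group, cluster 13 of EL1, was at 39.5 CPM (33.1 to 46.7), and the acinar-like clusters 1 and 8 of WTg were at 4.48 CPM and 3.92 CPM. In cluster 0 of EL1 a Krt7 UMI was found in 175 of 251 cells, and in cluster 12 in 51 of 77 cells. The level in cluster 5 of EL1 rested on 61 UMIs in 11 of 25 cells, with 52.5% of them in 3 cells. Without cluster 0 the ratio of Krt7 over all other kept cells was -0.09. Cluster 0 held 53.4% of the EL1 Krt7 UMIs and cluster 5 held 57% of the WTg ones.

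Cluster 12 combined a high Krt7 level with low Krt8 and Krt18, so that Krt7 made up 12.8% (11.5 to 14.1) of its type II keratin UMIs against 0.999% (0.929 to 1.07) in cluster 0 and 1.14% (1.03 to 1.26) in cluster 5 of WTg. It came from EL1 alone, and its leading genes were Atp4b and Atp4a, the subunits of the gastric proton pump, and the kallikrein Klk1. Sox9 was only 11 CPM (7.76 to 15.2) there, the lowest of the epithelial groups, and Onecut2 was 5.66 CPM (3.41 to 8.84). The same cluster was the highest for Krt4, a type II keratin of stratified mucosa, at 56.9 CPM, and for Krt80 at 33.1 CPM. Its acinar list summed to 80371 CPM and its neuroendocrine list to 222 CPM, against 86225 CPM and 10543 CPM in cluster 0, and the gastric list, which holds Atp4a and Atp4b, to 1863 CPM.

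Krt19 was highest in cluster 15a of EL1, at 206 CPM (179 to 235), where it was found in 24 of 32 cells and 3 cells held 51.6% of its UMIs. Cluster 0 of EL1 followed at 61.3 CPM (55.9 to 67) and cluster 5 of WTg at 54.2 CPM (47.4 to 61.6), with overlapping intervals, and then the acinar-like cluster 8 of WTg at 47.3 CPM (41.1 to 54.3). Cluster 15a was led by Mgp, Slc16a3, Bnip3, Bgn and Slc4a4, with Car9 also among its first 10 genes; Slc16a3, Bnip3 and Car9 are known targets of hypoxia. It held the highest Slc4a4 level, 269 CPM. Of the 8 fibroblast or pericyte markers 1 had UMIs there, at 8.61 CPM, and of 8 endothelial markers 0 had any.

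Krt20 was nearly restricted to 1 group in EL1. Cluster 0 was at 33.8 CPM (29.9 to 38.2) and held 85.5% of the EL1 UMIs, found in 54 of 251 cells, while cluster 13 of EL1 was at 5.22 CPM (3.1 to 8.26). In WTg the highest groups were cluster 7 at 4.22 CPM (2.68 to 6.34) and cluster 5 at 3.31 CPM (1.81 to 5.55), with overlapping intervals. When cluster 0 was left out, a step chosen after seeing the data, the ratio of Krt20 between the libraries turned from -2.24 to 0.21.

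Cldn7 was likewise highest in cluster 0 of EL1, at 55.3 CPM (50.2 to 60.7), in 121 of 251 cells. The shallow cluster 4 of EL1 was at 29.99 CPM (12.1 to 61.8) from 7 UMIs, and clusters 13, 2, 15a and 3 of EL1 were at 25.5, 19.1, 15.3 and 14.8 CPM. No WTg group with more than 3 Cldn7 UMIs was above 4.26 CPM (2.52 to 6.73), the level in cluster 5. Unlike Krt20, Cldn7 stayed lower in WTg without cluster 0, with a ratio of -2.10.

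Sox9 had UMIs in every epithelial group. It was rare in cluster 12 of EL1, in 7 of 77 cells and at 11 CPM, and in cluster 9 of WTg, in 9 of 60 cells. It was highest in cluster 6 of EL1, at 403 CPM (384 to 423), a group led by Fst with the neuroendocrine factor Insm1 among its first 10 genes, and then in cluster 15a of EL1 at 341 CPM (306 to 378), cluster 3 of EL1 at 298 CPM (287 to 309) and cluster 7 of WTg at 289 CPM (275 to 304), with overlapping intervals between neighbours from cluster 15a on. The acinar-like clusters 1 and 8 of WTg were at 137 CPM and 137 CPM, below clusters 2 and 3 of EL1, which stayed unnamed although their acinar lists summed to 254943 CPM and 208508 CPM. Of the Sox9 UMIs in cluster 15a of EL1, 46.9% came from 3 cells. Macrophage-like cells had 0 Sox9 UMIs in EL1 and 4.05 CPM in WTg.

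Onecut2 was highest in the neuroendocrine-like cluster 5 of WTg, at 160.1 CPM (148 to 173), where it was found in 102 of 114 cells. The next groups were the shallow cluster 4 of EL1 at 120.0 CPM (79.7 to 173), cluster 5 of EL1 at 115 CPM (91.5 to 143) and the shallow cluster 4 of WTg at 109 CPM (72 to 159), all with intervals that overlapped with a neighbour, and then cluster 7 of WTg at 87.6 CPM (79.9 to 95.8) and cluster 0 of EL1 at 78 CPM (72 to 84.5). The shallow cluster 4, whose median cell had 1840 UMIs in EL1 and 2063 in WTg, was led by the nuclear RNAs Gm26917, Kcnq1ot1 and Malat1. The acinar-like clusters 1 and 8 of WTg had 34.5 CPM and 25.9 CPM, and macrophage-like cells had 0 UMIs in both libraries.

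Spp1 was concentrated in few cells. Cluster 8 of WTg, acinar-like and led by Ctrl, which encodes chymotrypsin-like protease, was at 784 CPM (758 to 810.5) and held 89% of all WTg Spp1 UMIs, found in 59 of 111 cells. The next groups were cluster 15a of EL1 at 239 CPM (211 to 271), with 87.6% of the UMIs in 3 cells, macrophage-like cells of WTg at 185 CPM (159 to 214) and of EL1 at 111 CPM (84.6 to 143), and cluster 12 of EL1 at 111 CPM (100.1 to 123). In cluster 2 of EL1, at 43.5 CPM (38.4 to 49.1), 3 cells held 99.2% of the UMIs. In cluster 0 of EL1 only 2 Spp1 UMIs were found in 251 cells.

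Of the epithelial cells, 16 in EL1 and 30 in WTg had 20 or more Spp1 UMIs, and these held 79.0% and 92.1% of the epithelial Spp1 UMIs. Of the 30 WTg cells 28 lay in cluster 8, and of those 15 had a Krt19 UMI, 18 a Sox9 UMI and 0 a Krt7 UMI. The 16 EL1 cells lay in clusters 12 (7 cells), 2 (3), 15a (3), 3 (2) and 13 (1), and all 7 cells of cluster 12 had a Krt7 UMI. The 16 EL1 cells had a median of 77928 UMIs, against 28011 in all EL1 epithelial cells. The macrophage list summed to 33.5 CPM in cluster 8 of WTg, with 6 of its 9 markers found and Adgre1, Csf1r and Fcgr1 at 0 UMIs, against 26858 CPM in the macrophage-like cells. When cluster 8 was left out, the Spp1 ratio between the libraries turned from 1.93 to -1.06.

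Where both libraries filled a cluster with at least 20 cells, the genes could be compared within it. In the neuroendocrine-like cluster 5 (25 EL1 and 114 WTg cells), Krt8 was at 5858 CPM (5680.2 to 6039) and 7881 CPM (7797 to 7966), a ratio of 0.43 (0.38 to 0.48), and Krt18 had a ratio of 1.01 (0.94 to 1.09) and Krt19 of 1.55 (0.75 to 2.48). Onecut2 had a ratio of 0.47 (0.14 to 0.83), while the intervals of Krt7, at 0.07 (-0.32 to 0.49), and Sox9, at -0.03 (-0.26 to 0.21), held 0. So did those of Krt20, at -0.37 (-2.21 to 2.07) from 3 and 14 UMIs, and Cldn7, at 1.58 (-1.08 to 6.96) from 1 and 18 UMIs. In EL1, 3 cells gave 34.3% of the Krt8 UMIs of this cluster. The EL1 value of Krt19 rested on 13 UMIs in 6 of 25 cells, with 69.2% of them in 3 cells.

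In cluster 14 (36 and 29 cells), led by Fos and other immediate early genes, Krt8 had a ratio of -0.31 (-0.38 to -0.24), Krt18 of -0.12 (-0.20 to -0.04), Krt19 of 1.23 (0.25 to 2.30) and Sox9 of 0.56 (0.20 to 0.93). Cldn7, with 8 and 1 UMIs, had a ratio of -2.97 (-8.44 to -0.07). In the shallow acinar-like cluster 9, Krt8 had a ratio of -1.16 (-1.34 to -0.97) and Sox9 of -1.69 (-2.81 to -0.62), and in the shallow cluster 4 Krt8 had -0.44 (-0.55 to -0.32), Krt18 -0.70 (-0.86 to -0.53) and Spp1, with 2 and 14 UMIs, 2.72 (0.60 to 5.91). Krt8 and Krt18 thus stood higher in WTg in cluster 5 and lower in clusters 14 and 4, which the pooled ratios near 0 did not show. Few cells carried some of these sums. In cluster 9 of EL1, 3 cells held 95.2% of the Sox9 and 64.8% of the Krt8 UMIs. In cluster 4 of EL1, 3 cells held 67.8% of the Krt18 UMIs, and in cluster 14 of WTg 3 cells held 67.7% of the Sox9 UMIs. For Krt19 in cluster 14, 3 cells held 69.2% of 13 UMIs in EL1 and 56.7% of 30 UMIs in WTg.

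**Figure D4:**
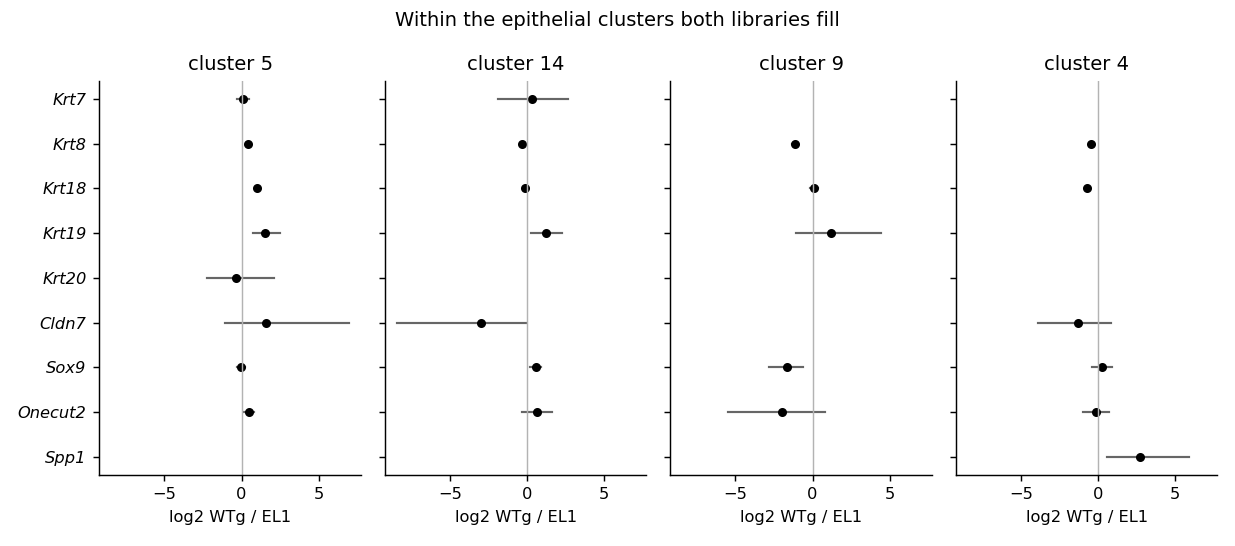
Log2 ratios of WTg over EL1 (x axis) for each gene (y axis) within the 4 epithelial clusters that both libraries filled with at least 20 cells; points are ratios and lines are 95% counting intervals. Genes with 0 UMIs in a library, or with 3 or fewer in both, are not drawn, and intervals of Krt8 and Krt18 are about as narrow as the points.

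As a class, the neuroendocrine-like cells were mostly cluster 0 in EL1 and cluster 5 in WTg (276 and 116 cells in all). Over this class Krt8 had a ratio of -0.22 (-0.23 to -0.20) and Krt18 of -0.22 (-0.24 to -0.20), both lower in WTg, opposite to their ratios within cluster 5 alone. Krt7 had a ratio of -0.07 (-0.25 to 0.11), Krt19 of -0.07 (-0.30 to 0.15) and Sox9 of 0.08 (-0.03 to 0.18), whose intervals held 0, whereas Onecut2 had 0.95 (0.80 to 1.11), Krt20 -3.28 (-4.17 to -2.51) and Cldn7 -3.61 (-4.38 to -2.94). Within cluster 5 alone, which both libraries filled, the intervals of Krt20 and Cldn7 held 0, from few UMIs. In other clusterings Krt7 of this class was lower in WTg beyond counting error, at -0.55 with Leiden resolution 0.5, -0.32 with resolution 2 and -0.20 with the 9 genes kept among the clustered genes. At resolution 0.5 Krt19, at -0.41 (-0.61 to -0.20), and Sox9, at 0.20 (0.12 to 0.29), also had intervals without 0. The acinar-like class held 35 EL1 and 397 WTg cells. Most of the EL1 cells lay in the shallow cluster 9, which gave only 500 of the 1899 EL1 Krt8 UMIs of the class. Several ratios of this class rest on few EL1 UMIs, with 7 of Krt7, 11 of Krt19 and 30 of Sox9.

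The tumours held cells with acinar and neuroendocrine transcripts together, and the 9 genes were followed in them. Cpa1, an acinar carboxypeptidase, stood at 16088 CPM (16048 to 16128) in EL1 against 17345 CPM (17299.8 to 17389.6) in WTg, and Chga, the chromogranin of secretory granules, at 3559.9 CPM (3541 to 3579) and 2134 CPM (2118 to 2149.7). The ratio of Chga was -0.74 (-0.75 to -0.73). Chgb, an alternative to Chga, went the other way, with a ratio of 0.50 (0.45 to 0.54). Its level was 189 CPM (185 to 194) for EL1, against 267 CPM (261 to 272) for WTg. Cpb1, an alternative to Cpa1, had a ratio of 0.11, as Cpa1 had. Chga alone therefore does not give the neuroendocrine state of each library. After drawing 2000 UMIs per cell, 984 of 997 EL1 epithelial cells had a Cpa1 UMI, 652 a Chga UMI and 649 both, and in WTg 760 of 766 had Cpa1, 480 Chga and 477 both. Among immune cells 17 of 47 in EL1 and 16 of 60 in WTg had Cpa1, and 8 of 47 and 5 of 60 had Chga, and the source of these UMIs was not tested. Nearly every epithelial cell was therefore positive for Cpa1, and Chga was the gene that divided them.

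Krt7 was found in 54 of 649 cells, 8.32% (6.31 to 10.7), of EL1 cells with Cpa1 and Chga and in 14 of 335 cells, 4.18% (2.3 to 6.91), of those with Cpa1 alone. In WTg it was found in 19 of 477 cells, 3.98% (2.41 to 6.15), and in 2 of 283 cells, 0.707% (0.0857 to 2.53). Onecut2 showed the same order, with 62 of 649 cells, 9.55% (7.4 to 12.1), against 9 of 335 cells, 2.69% (1.24 to 5.04), in EL1 and 69 of 477 cells, 14.5% (11.4 to 17.9), against 15 of 283 cells, 5.3% (3.0 to 8.59), in WTg. For Onecut2 the intervals with and without Chga did not overlap in either library, whereas those of Krt7 overlapped in both. With 5000 UMIs drawn, the Krt7 intervals did not overlap either, at 18.6% (15.7 to 21.8) against 8.12% (5.16 to 12) in EL1 and 8.18% (5.94 to 10.9) against 0.518% (0.0131 to 2.85) in WTg.

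Cldn7 was found in 37 of 649 cells, 5.7% (4.05 to 7.77), in EL1, and in 4 of 335 cells, 1.19% (0.326 to 3.03), of the cells without Chga, but in only 2 of 477 and 4 of 283 WTg cells. Spp1 went the other way in WTg, with 5 of 477 cells, 1.05% (0.341 to 2.43), against 39 of 283 cells, 13.8% (9.99 to 18.4), and in EL1 with 5 of 649 cells, 0.77% (0.251 to 1.79), against 12 of 335 cells, 3.58% (1.86 to 6.17). Krt19 was found in 45 of 649 cells, 6.93% (5.1 to 9.17), and 17 of 335 cells, 5.07% (2.98 to 8.0), in EL1, and in 23 of 477 cells, 4.82% (3.08 to 7.15), and 16 of 283 cells, 5.65% (3.27 to 9.02), in WTg, with overlapping intervals. Krt8 and Krt18 were found in 87.8% or more of the cells of each of these groups.

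With the whole marker lists in place of single genes, epithelial cells were split in each library at the median share of UMIs of 20 acinar and of 12 neuroendocrine genes (11.6% and 0.254% of UMIs in EL1, 15.8% and 0.187% in WTg). The split is a range and not a cell type: 96 EL1 and 120 WTg cells lay within 10% of the acinar value, and 33 and 52 within 10% of the neuroendocrine value. Krt7 was at 79.7 CPM (74.3 to 85.4) where only the neuroendocrine list was high and at 5.79 CPM (4.66 to 7.1) where only the acinar list was high in EL1, and at 50.7 CPM (46.5 to 55.1) and 5.42 CPM (4.15 to 6.97) in WTg. Onecut2 stood at 77.7 CPM (72.3 to 83.3) and 19.4 CPM (17.3 to 21.7) in EL1 and at 119 CPM (112 to 125) and 24.8 CPM (22 to 27.9) in WTg. Both genes were thus higher on the neuroendocrine side in either genotype.

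Cells with both lists high, 158 in EL1 and 130 in WTg, were between the extremes for Onecut2, at 43.1 CPM (38.1 to 48.6) and 49.4 CPM (44 to 55.2). For Krt7 they were at 32.1 CPM (27.8 to 37) in EL1 and at 6.46 CPM (4.61 to 8.79) in WTg, the latter no higher than on the acinar side beyond counting error. Where neither list was high Krt7 was at 57.2 CPM (51 to 64) in EL1, above the cells with both lists high, and at 6.1 CPM (3.68 to 9.53) in WTg. Cldn7 was at 40.9 CPM (37.1 to 45), 28.5 CPM (24.4 to 33.1) and 12.3 CPM (10.7 to 14.2) in EL1 and at 5.07 CPM or less in each WTg group. Spp1 was at 274 CPM (265 to 284) on the acinar side of WTg and at 17.3 CPM (15.3 to 19.5) on that of EL1, and at 7.67 CPM (6.12 to 9.49) and 0.495 CPM (0.161 to 1.16) on the neuroendocrine side. Where neither list was high, Spp1 was at 113 CPM (104 to 122) in EL1, its highest there, and at 135 CPM (122 to 148) in WTg.

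Krt19 did not share 1 order between the genotypes. In EL1 it was lowest on the acinar side, at 15.8 CPM (13.9 to 17.9), and 52.1 CPM (47.7 to 56.7) on the neuroendocrine side, whereas in WTg it was 38.7 CPM (35.1 to 42.5) and 43.3 CPM (39.5 to 47.3), with overlapping intervals. Where neither list was high it was at 50.5 CPM (44.7 to 56.9) and 56.2 CPM (48.2 to 65.2). With both lists high Krt19 was at 22 CPM (18.4 to 26) in EL1 and at 21.8 CPM (18.3 to 25.8) in WTg, its lowest in WTg. Sox9 was at similar levels on both sides in EL1, at 260.3 CPM (250.4 to 270.4) and 257 CPM (249 to 265), and higher on the neuroendocrine side in WTg, at 242 CPM (233 to 252) against 134 CPM (127 to 141). Where neither list was high Sox9 was lowest in EL1, at 124 CPM (114 to 133), and at 201 CPM (186 to 218) in WTg. With both lists high Sox9 was at 248 CPM (236 to 261) in EL1 and at 125 CPM (116 to 134) in WTg.

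**Figure D5:**
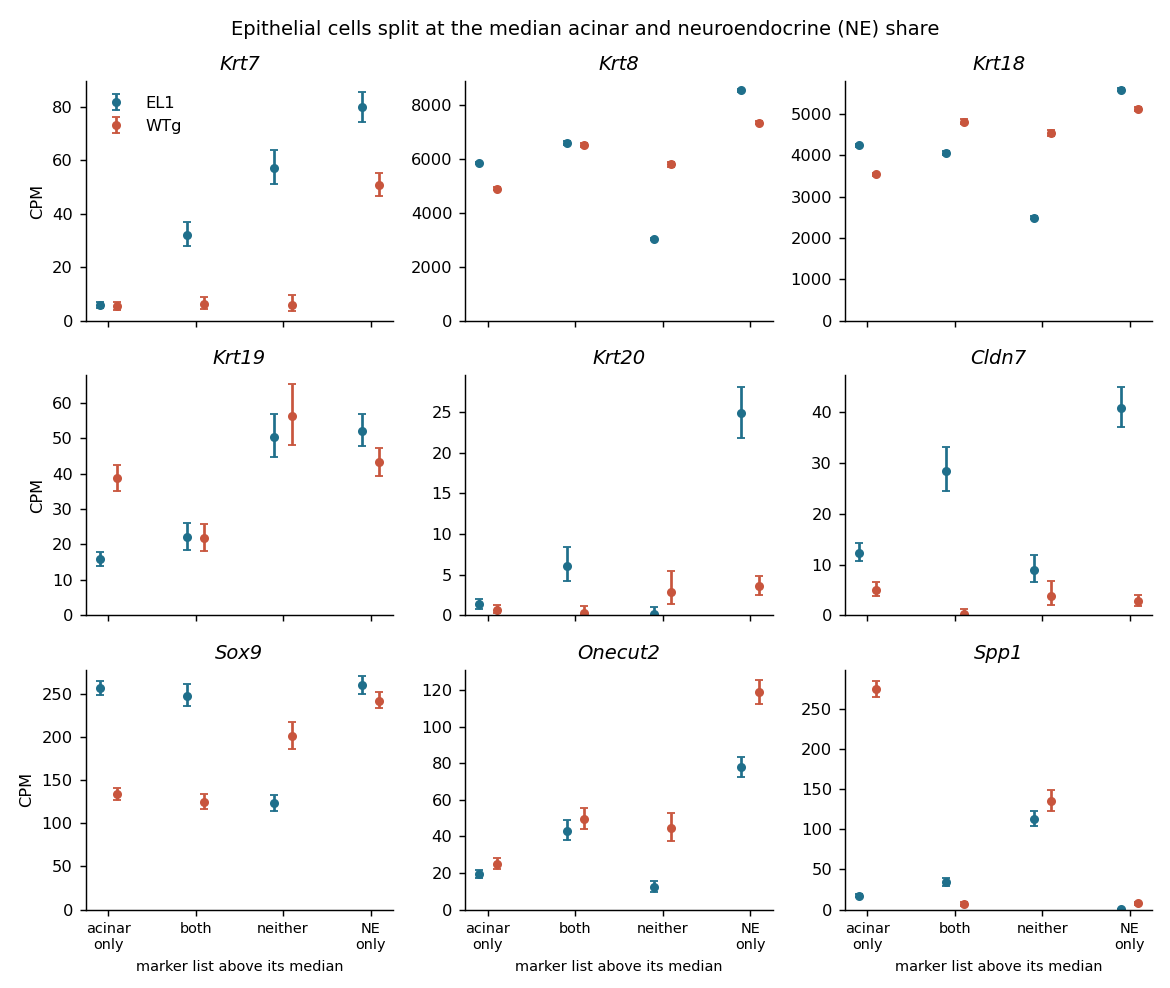
Levels in CPM (y axes, starting at 0) of each gene in epithelial cells split at the median acinar and neuroendocrine (NE) list share of their library, for EL1 in blue and WTg in red, with 95% Poisson intervals. Krt7 and Onecut2 are highest where only the neuroendocrine list is high, and Spp1 of WTg where only the acinar list is high.

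To show which genes were distributed like each of the 9, log2(CPM + 10) values over the 21 groups were correlated with those of 11041 genes with at least 200 UMIs, and the 3 highest were taken. The groups share libraries, depth and clustering, and the values are descriptive. Krt8 was nearest to Krt18 (0.98), Fhl2 and 5330417C22Rik, and Krt18 to Krt8, 5330417C22Rik and Tnfrsf12a. Sox9 was nearest to Fhl2 (0.94), Tm4sf4 and Krt8, and Onecut2 to Zfp469 (0.97), Snap25, a synaptic vesicle fusion protein, and Cacna2d1, a calcium channel subunit. Krt7 was nearest to Nefh (0.88), Hamp2 and Cog1, Krt20 to Myo18b (0.85), Serinc2 and F2, Cldn7 to Tmc4 (0.86), Ptgfrn and Aqp3, Krt19 to Kctd14 (0.78), Kbtbd11 and Armcx1, and Spp1 to Oaf (0.78), Prelid2 and Anxa2. Of these 27 entries 6 were also found by rank correlation and 10 with 1 CPM added in place of 10, and Krt8 with Krt18 was found by each.

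Other genes of the same structures were counted for comparison, with the shares of 10.1% higher and 6.90% lower among all genes as the background. Under TMM scaling the median ratios given here for the partner, factor and duct function lists turned from just below 0 to 0.11, 0.10 and 0.02. Of 16 other type II keratins 6 reached 10 UMIs, and 4 of these had a ratio of -1 or less and 0 a ratio of 1 or more. Krt4 was at 5.87 CPM in EL1 against 0.969 CPM in WTg (ratio -2.60, -3.18 to -2.06), Krt79 at 4.21 CPM in EL1 against 1.24 CPM in WTg (ratio -1.76, -2.29 to -1.26) and Krt80 at 3.0 CPM in EL1 against 0.424 CPM in WTg (ratio -2.82, -3.74 to -2.02). Krt79 was highest in the acinar-like shallow cluster 9 of EL1, at 219.6 CPM. Of 12 other type I keratins 4 reached 10 UMIs, with 1 higher and 1 lower. The lower one was Krt16, with 20 UMIs in 2 EL1 cells and 1 UMI in WTg. The most abundant, Krt10, was at 22.3 CPM in EL1 against 13.5 CPM in WTg and Krt17, a keratin of stressed and basal epithelium, at 2.53 CPM in EL1 against 5.3 CPM in WTg (ratio 1.07, 0.70 to 1.44), found in 10 EL1 and 19 WTg cells.

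Of 15 genes listed as keratin partners, plakins and desmosomal genes 14 reached 10 UMIs, 2 were higher by 1 or more and 0 lower, with a median ratio of -0.00. These 2 were the armadillo proteins Pkp3, at 8.35 CPM in EL1 against 22.7 CPM in WTg (ratio 1.44, 1.25 to 1.64), and Jup, at 23 CPM in EL1 against 47.2 CPM in WTg (ratio 1.04, 0.92 to 1.16). The most abundant gene on the list was Krtcap2, at 439 CPM in EL1 against 454 CPM in WTg. It encodes keratinocyte-associated protein 2, which is not a keratin partner, plakin or desmosomal protein. Of 16 other claudins 10 reached 10 UMIs, with 2 higher and 2 lower. The 2 higher were Cldn5, with 0 EL1 UMIs and 32 in 4 WTg cells, and Cldn15, with 5 and 13 UMIs. Among the 8 with at least 50 UMIs, 0 were higher and 2 lower. Cldn18, a claudin of stomach and lung, had 141 UMIs in EL1 and 1 in WTg, (ratio -6.94, -12.25 to -4.44), and was highest in cluster 0 of EL1, as Cldn7 was. Cldn6 was at 6.27 CPM in EL1 against 2.94 CPM in WTg (ratio -1.09, -1.45 to -0.75), and the most abundant, Cldn3, at 116 CPM in EL1 against 89.7 CPM in WTg (ratio -0.37, -0.43 to -0.30).

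Of 20 tight and adherens junction genes, all with at least 10 UMIs, 1 was higher and 0 lower. That gene was Cdh1, E-cadherin, at 165 CPM in EL1 against 340.0 CPM in WTg (ratio 1.04). Of 27 other duct and progenitor factors 26 reached 10 UMIs, 2 were higher and 1 lower, with a median of -0.01. Gata6, a zinc finger factor of pancreatic identity, was at 2.05 CPM in EL1 against 13.1 CPM in WTg (ratio 2.67, 2.32 to 3.03). Its highest group was cluster 5 of EL1 (25 cells), at 38.4 CPM, followed by cluster 5 of WTg (114 cells), at 20.8 CPM. Within cluster 5 the order of the libraries was thus opposite to the pooled ratio of Gata6, and this was not tested. Onecut3, a relative of Onecut2, was at 0.501 CPM in EL1 against 1.73 CPM in WTg (ratio 1.79, 1.02 to 2.62). Ehf, an ETS factor of epithelia, was at 15.3 CPM in EL1 against 6.73 CPM in WTg (ratio -1.19, -1.42 to -0.96). The most abundant, Tead1, was at 129.9 CPM in EL1 against 134 CPM in WTg. The third Onecut gene, Onecut1, was at 10.1 CPM in EL1 against 9.82 CPM in WTg (ratio -0.04, -0.26 to 0.18), and Onecut3 rested on 19 and 57 UMIs.

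Of 25 genes of duct function 18 reached 10 UMIs, 5 were higher and 2 lower, with a median of -0.09. Tff2, a trefoil peptide, was at 755 CPM in EL1 against 2118 CPM in WTg (ratio 1.49, 1.47 to 1.51), Ambp at 197 CPM in EL1 against 464 CPM in WTg (ratio 1.23, 1.19 to 1.27), Wfdc2, with 2 UMIs in EL1, at 0.0527 CPM in EL1 against 4.7 CPM in WTg (ratio 6.48, 4.60 to 9.54) and Pigr at 0.316 CPM in EL1 against 1.15 CPM in WTg (ratio 1.86, 0.90 to 2.94). Slc26a6, an anion exchanger, was at 16 CPM in EL1 against 5.79 CPM in WTg (ratio -1.47, -1.71 to -1.23), Lcn2 at 2.79 CPM in EL1 against 1.36 CPM in WTg (ratio -1.03, -1.57 to -0.52), with its highest level in macrophage-like cells of EL1, at 122 CPM against 6.07 CPM in those of WTg, and the most abundant, Clu, at 2478 CPM in EL1 against 3206 CPM in WTg. Of 13 osteopontin receptors and proteases 11 reached 10 UMIs, with 1 higher and 1 lower. Itga9, an integrin subunit that binds osteopontin, was at 1.16 CPM in EL1 against 5.27 CPM in WTg (ratio 2.19, 1.70 to 2.70), mostly in macrophage-like cells, where it was 79.1 CPM in EL1 against 137 CPM in WTg. Mmp3, with all UMIs in 1 cell of each library, was at 1.71 CPM in EL1 against 0.727 CPM in WTg, and the most abundant, Itgb1, at 155 CPM in EL1 against 151 CPM in WTg.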

How the data were processed

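The deposited counts are UMIs by gene and barcode; the authors obtained them from Cell Ranger (version 6.0.2 per the matrix header, GRCm38 per the labels) from 10x 3′ v3.1 libraries. No normalisation was applied to the deposited counts, and R 4.1 and Seurat 4.0.5 were also named in the submitters' processing notes. A dense table of the same counts was used only as an alternative. Whether intronic reads were counted was not given in the sources used here. Kept cells were clustered with scanpy 1.11.5 (10000 UMIs per cell, log, 2000 variable genes, 30 components, 15 neighbours, Leiden resolution 1, leidenalg 0.10.2), with the cell cycle lists of Seurat 5.3.0 left out. Cluster 15 was split at resolution 0.3 after the data had been seen. A cluster was named where at least 3 markers of a list were raised by a log2 fold of 1 in at least 10% of its cells, more than for any other list, with a marker among its first 10 genes. Scrublet called 4 doublets in each library, under 0.5%, so doublets were in effect not removed, and 1 EL1 and 3 WTg cells had 10000 genes or more. Totals were 39171674 UMIs in EL1 and 34871992 in WTg. Where a library had 0 UMIs, 3 counts over the group gave a bound. Genes were named by a rule: the 9 genes, Cpa1, Cpb1, Chga and Chgb, in each list up to 4 genes with the highest and 4 with the lowest ratio past 1 among those with at least 50 UMIs and the most abundant, the 3 nearest genes, and the genes leading a cluster; Epcam, Mettl3, Slc4a4, Muc1, Onecut1, Cftr and Dcdc2a are given as checks. Cpb1 and Chgb served as alternative partner genes. Cldn5, Cldn15 and Krt16 are named outside this rule, as counted genes with fewer than 50 UMIs. The 9 genes and the lists were chosen with earlier results of these data known. Ratios and intervals were tested on simulated data. Alternatives were other cell filters, doublet removal, scalings, clusterings, thinning depths and partner genes.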

Additional observations from a re-analysis of the deposited data

Results flagged for a closer look

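For Krt8, Krt18 and Sox9 the log2 ratio of WTg over EL1 had opposite signs, beyond counting error, in different clusters that both libraries filled. With 1 library per genotype these differences between clusters were not tested against the spread between mice. Krt8 had a ratio of 0.43 in the neuroendocrine-like cluster 5, and of -0.44 in cluster 4, -1.16 in cluster 9 and -0.31 in cluster 14. Krt18 had 1.01 in cluster 5, -0.70 in cluster 4 and -0.12 in cluster 14. Sox9 had 0.56 in cluster 14 and -1.69 in cluster 9, the latter from 21 EL1 and 13 WTg UMIs. Some of these sums rested on few cells. In cluster 9 of EL1, 3 cells held 95.2% of the Sox9 and 64.8% of the Krt8 UMIs. In cluster 4 of EL1, 3 cells held 67.8% of the Krt18 and 55.8% of the Krt8 UMIs. In cluster 14 of WTg, 3 cells held 67.7% of the Sox9 UMIs, and 15 of 29 cells had one, against 23 of 36 in EL1. Counting intervals do not cover this spread between cells. Clusters 4 and 9 were shallow in both libraries, with median cells of 1840 and 2063 UMIs and of 3969 and 3396 UMIs in EL1 and WTg, and cluster 5 rested on 25 EL1 cells.

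Among barcodes that the filter removed (508 in EL1 and 583 in WTg), Spp1 was at 43.4 CPM (34.5 to 54) in WTg and at 9.09 CPM (4.54 to 16.3) in EL1, a difference in the same direction as in the kept cells.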

How the results depend on the processing

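Over 7 other choices of cells, scaling and weighting, 45 of the 63 ratios of the 9 genes moved by less than their counting interval, 18 by more, and 0 turned in sign among called values; Krt8 and Krt18, with ratios near 0, changed sign under TMM scaling, and Krt18 also over epithelial clusters alone. Of the 452 alternatives run over all results, 274 stayed the same, 176 moved and 2 were reversed. The following alternatives were chosen after seeing the data. Without cluster 8 the Spp1 ratio was -1.06 and 0 genes had a ratio of 1 or more. Without cluster 0 the Krt20 ratio was 0.21, that of Krt7 was -0.09 and that of Onecut2 1.18, so that 2 genes had a ratio of 1 or more and 1 a ratio of -1 or less. Without the 10 cells richest in each gene, Krt7 reached -1.15 and Spp1 2.17. Without the shallow clusters 4 and 9 no ratio moved by over 0.03. No paired analysis was possible because each genotype had 1 library. Depth limited Krt20 and Cldn7 in WTg, with 57 and 101 UMIs, and leaving out a replicate was not possible with 1 library per group.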

Other observations

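In the barcodes that the filter removed, Onecut2 was at 66.9 CPM (53.1 to 83.2) for EL1 against 61.1 CPM (50.4 to 73.5) for WTg, against 37.6 CPM (35.6 to 39.6) and 61.3 CPM (58.7 to 64) among the kept cells, whereas Krt8 was at 2688 CPM (2596 to 2782) and 2335 CPM (2267 to 2406) there, below its level in kept cells. Krt18 was at 1389.6 CPM (1324 to 1458) and 1295 CPM (1244 to 1348) and Sox9 at 89.2 CPM (73.2 to 108) and 61.7 CPM (50.9 to 74). Beyond counting error, Onecut2 in EL1 and Krt20 in WTg (12 UMIs, 6.44 CPM (3.33 to 11.2), against 1.73 CPM (1.31 to 2.24) in kept cells) stood higher in removed than in kept barcodes.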
